A study of Mus musculus with 2 samples.

Results

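Inflammatory monocytes were examined in CD45+ cells sorted from mouse melanomas. The members were the cells that the authors' deposited annotation names Infl_Mono, a name set on clusters of a map shared by both libraries and chosen from marker genes. They numbered 714 of 7815 cells, of which 620 came from the NTT tumour and 94 from the RTT tumour. Both tumours were grown by subcutaneous injection of the YUMM3.3 line (Braf V600E, Cdkn2a-/-) into C57BL/6 mice and were taken at day 12 by the record, whereas a different day stands in the methods. NTT is the line that had never met targeted therapy, and RTT is its derivative that had become resistant to BRAF inhibition and was kept in the inhibitor dabrafenib in culture. With 1 tumour and 1 library in each group, effects of the line cannot be told apart from those of the mouse or of the preparation, no spread between mice was available, and no test was run. The question put to these cells was how far the label describes the same cells in both tumours, and how they stood beside Monocyte_1, the larger monocyte population, and the macrophages.

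Classical monocytes leave the blood, enter tumours and can mature there into macrophages, losing monocyte genes such as Plac8 and gaining complement genes such as C1qa on the way. Type I interferon signals through the receptor IFNAR to transcription factors that bind interferon-stimulated response elements in DNA and switch on antiviral genes. A monocyte or macrophage that has met interferon therefore carries a programme of interferon-stimulated genes on top of its own identity genes.

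Expression was counted as unique molecular identifiers (UMIs), 1 for each captured transcript. UMIs were summed over the cells of a population and scaled to CPM, so that the values of all genes in a sum add up to the same total. A log2 ratio compares such sums, a gene was counted as past 2-fold at a log2 ratio of at least 1 in either direction, and genes with a mean of at least 20 CPM over the pair of sums were compared. All intervals are 95% intervals for counting error only. The Infl_Mono cells held a median of 4811 UMIs in the NTT library and 5385.5 in the RTT library, with 3143601 and 588902 UMIs in all. Because the same genes had been used to form the clusters, differences between Infl_Mono and other populations describe the label and carry no test. Free RNA was read from the NK cells, which should lack monocyte transcripts: Plac8 stood at 1390 CPM in NTT and 637 CPM in RTT NK cells, and C1qa at 41.5 CPM and 814 CPM. NK cells can express Plac8 themselves, and their part in these values was not tested. A total of 7 cell barcodes occurred in both libraries, and 1 of these entries was an Infl_Mono cell.

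The 5 marker genes of the population did not behave as 1 group. Ifit1, which binds viral RNA (chromosome 19, 34640871 to 34650009, plus strand), stood at 1100 CPM in NTT and 1404 CPM in RTT Infl_Mono cells. Rsad2, which encodes the antiviral enzyme viperin (chromosome 12, 26442746 to 26456452, minus strand), stood at 1071 CPM and 783 CPM. Ifit1 and Rsad2 were thus of similar size in the sums over all cells of the 2 libraries. Both were far above RTT TAM_C1q macrophages, where Ifit1 stood at 10.1 CPM and Rsad2 at 3.89 CPM. These sums mix sets of cells that are compared apart below. Among cells with C1qa under 2000 CPM, Rsad2 stood at 165 CPM in RTT and 992 CPM in NTT. Slfn4, a Schlafen family gene of myeloid cells (chromosome 11, 83175186 to 83190216, plus strand), was lower in RTT, at 54.3 CPM against 370 CPM in NTT. The monocyte genes were lower as well: Plac8 (chromosome 5, 100553725 to 100572245, minus strand) stood at 7994 CPM in NTT and 2107 CPM in RTT. Chil3, a chitinase-like protein of immature monocytes (chromosome 3, 106147554 to 106167564, minus strand), stood at 1194 CPM and 632 CPM. Not every cell yielded a UMI of each marker. Rsad2 was found in 56.3% of NTT and 50% of RTT cells, against 14.0% and 1.96% of NK cells. Positions are those of GRCm38 (mm10).

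**Figure D1:**
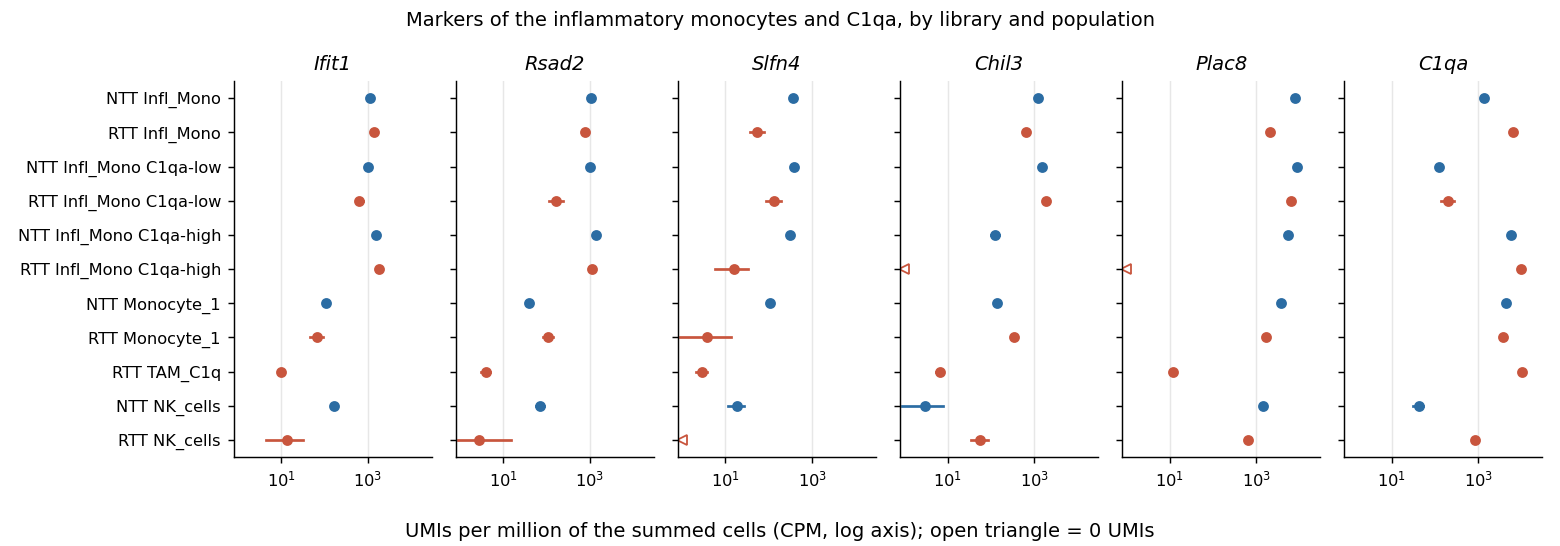
Levels of the 5 markers and of C1qa in CPM (log axis) over the summed cells of each population, NTT in blue and RTT in red, with 95% counting intervals as bars and open triangles for 0 UMIs. Ifit1 and Rsad2 stayed high in the sum of all RTT Infl_Mono cells, whereas Plac8 and Chil3 had 0 UMIs in the RTT cells with C1qa of 2000 CPM or more.

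Promoter sequences are shown for 5 of the interferon-stimulated genes the results turn on, chosen because they held a match to an interferon-response motif. Stretches upstream of the start site are given 5′ to 3′ on the gene's strand from RefSeq (GRCm38.p6), with matches to GAAA, any 2 bases and GAAA again (ISRE-like, searched on both strands) in capitals.
Ifit1, chr19:34640765-34640833, plus strand: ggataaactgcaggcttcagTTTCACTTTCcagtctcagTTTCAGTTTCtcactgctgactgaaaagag
Ifit3, chr19:34583353-34583436, plus strand: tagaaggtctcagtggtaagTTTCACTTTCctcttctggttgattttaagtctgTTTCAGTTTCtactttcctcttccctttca
Rsad2, chr12:26456543-26456592, minus strand: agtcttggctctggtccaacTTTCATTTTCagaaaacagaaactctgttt
Isg15, chr4:156200855-156200916, minus strand: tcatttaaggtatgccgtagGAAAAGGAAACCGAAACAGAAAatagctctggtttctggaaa
Cxcl10, chr5:92349073-92349122, minus strand: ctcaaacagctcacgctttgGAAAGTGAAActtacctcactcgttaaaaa
Ifit1 and Ifit3 each held 2 matches and Isg15 held 3 that overlap. The 250 bases before the start of Ifit2, Cmpk2, Slfn4 and Cxcl9 held none, which says only that these letters are not there. Over the windows from 250 bases before to 50 bases after the start, 3.44% of all 32851 windows held a match. Counted by gene, with a match in any of its windows, it was 394 of 9982 measured genes (3.95%), and the lists were counted in the same way. Among the antiviral effector genes it was 14 of 27 genes with a window, and among the GBP and IRG GTPases, 10 of 11. Among the classical monocyte genes it was 0 of 9 and among the mature macrophage genes 1 of 18. TTCNNNGAA (GAS-like, both strands) was found in 8.30% of all windows and, by gene, in 8.26% of the 9982 genes. It was found in 6 of the 27 antiviral and 6 of the 11 GTPase genes. A match is a description of the letters and not a measured binding site.

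Infl_Mono cells were a large part of the NTT infiltrate and a small part of the RTT infiltrate. They made up 20.8% (19.4 to 22.3) of all NTT cells and 1.94% (1.57 to 2.37) of all RTT cells. Among monocytes and macrophages together the shares were 28.2% and 2.23%. Among monocytes alone the order turned, with 38.4% (36.0 to 40.8) in NTT and 47.2% (40.1 to 54.4) in RTT, where only 199 monocytes were labelled. The 94 RTT cells include 43 with C1qa of 2000 CPM or more and no Plac8 UMI, described below. The RTT share, and with it the order, depends on counting these as monocytes. The CD45 sort and the numbers of the other cells enter these shares, and fewer Infl_Mono cells cannot be told apart from more macrophages. As 620 of the 714 cells came from 1 library, the label is mostly described by that library.

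The RTT cells that carried the label split into 2 sets that did not overlap in Plac8 and C1qa. C1qa encodes a chain of complement component C1q and marks mature macrophages (chromosome 4, 136895917 to 136898803, minus strand). Cells with C1qa of 2000 CPM or more are called C1qa-high here and the rest C1qa-low, a division of a range and not a cell type. In the RTT library 47 of 94 Infl_Mono cells had a Plac8 UMI, all of them C1qa-low, with at least 3 Plac8 UMIs each. The other 47 cells had no Plac8 UMI, and 43 of these were C1qa-high. No cell was both (0 of 43 C1qa-high cells had a Plac8 UMI, a count that still permits 6.98%), and 4 were neither. The C1qa-high cells lay well above the cut, the lowest at 3624 CPM, and 3 RTT cells fell between 1000 and 4000 CPM. The C1qa-high cells were the deeper ones, with a median of 8263 UMIs against 3587 in C1qa-low cells. The cells without Plac8 were thus not the shallower ones. After every cell was thinned to 2000 UMIs, 45 of the 92 remaining RTT cells still had a Plac8 UMI, against 47 of 94 unthinned.

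In the NTT tumour the same 2 genes met in the same cells. Of 620 NTT Infl_Mono cells, 612 had a Plac8 UMI and 123 (19.8%, 16.8 to 23.2) were C1qa-high, against 43 of 94 (45.7%) in RTT. A Plac8 UMI was found in 120 of the 123 C1qa-high cells, with a median of 23 Plac8 UMIs per cell. Plac8 stood at 5387 CPM in these cells and 8736 CPM in the C1qa-low cells, both above the NK cells at 1390 CPM. Of the NTT cells, 68 fell between 1000 and 4000 CPM of C1qa. Joint presence was also common in NTT Monocyte_1, where 460 of 541 C1qa-high cells had a Plac8 UMI, and it was found in 10 of 41 in RTT Monocyte_1. In RTT TAM_C1q it was 41 of 1987 C1qa-high cells, and in the 12 C1qa-high cells of NTT TAM_C1q it was 5. Among C1qa-high cells of the other RTT macrophages it was 2 of 35 in TAM_H2Ab1, 24 of 394 in TAM_Spp1 and 12 of 905 in TAM_cycling. In Ctsk_Macro it was 0 of 38, whereas in Macro it was 5 of 8. The 43 RTT C1qa-high cells therefore had, in these 2 genes, the pattern of most RTT macrophages and not that of the NTT cells with the same label. A Plac8 UMI was also rarer in RTT than in NTT in each other population in which it was counted in both libraries. Examples are 1.37% against 56.3% of TAM_cycling and 20.8% against 97.5% of cDC2 cells. The difference in Plac8 between libraries was thus not particular to this label.

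**Figure D2:**
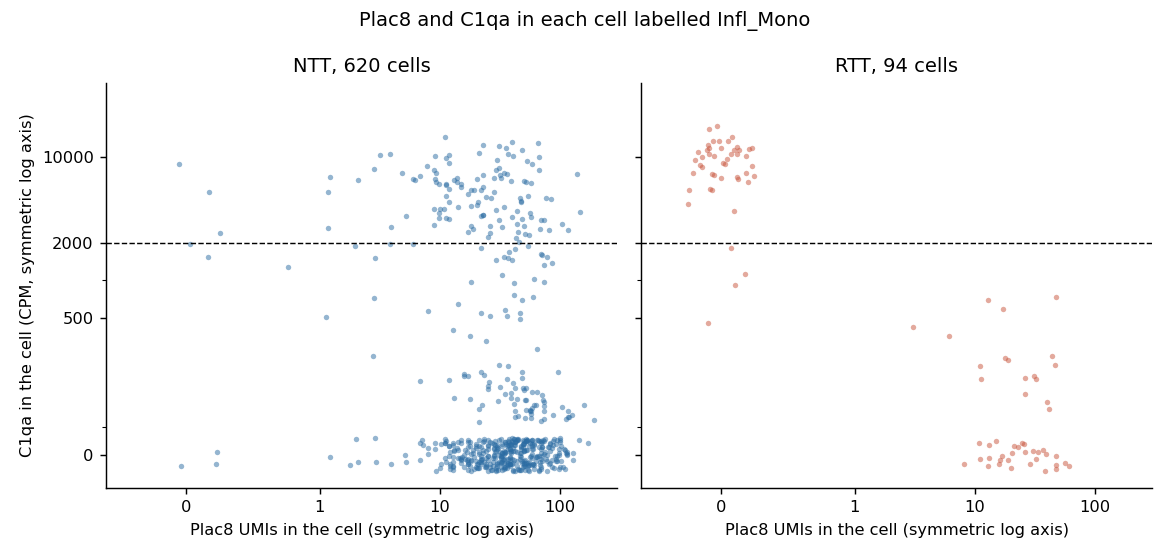
Each point is 1 cell labelled Infl_Mono, with its Plac8 UMIs across (symmetric log axis) and its C1qa level in CPM upwards (symmetric log axis); points were jittered slightly, and the dashed line is the cut at 2000 CPM. Of the NTT cells, 120 lie above the line with a Plac8 UMI, whereas of the 94 RTT cells 43 lie above it at 0 Plac8 UMIs, 47 have 3 or more Plac8 UMIs with C1qa of at most 734 CPM, and 4 have neither.

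The RTT C1qa-high cells carried mature macrophage genes near the levels of TAM_C1q, together with the interferon programme. TAM_C1q was the only macrophage population set beside them gene by gene. By likeness, described below, 21 of the 43 cells were nearest Infl_Mono, 11 TAM_H2Ab1 and 10 TAM_C1q, so the macrophage genes are not particular to TAM_C1q. The RTT C1qa-high cells were chosen for high C1qa, which is on the macrophage list, so its high level follows from the choice. Over TAM_C1q of the same library, 2 of 21 mature macrophage genes compared were past 2-fold lower and none was higher (median log2 ratio -0.30, against -0.17 for all genes compared), where 4.72% of all genes were past 2-fold lower. Apoe, the lipid carrier of mature macrophages, stood at 17347 CPM in these cells and 17993 CPM in TAM_C1q. The macrophage genes Ms4a7 and Fcrls stood at 4178 CPM and 3120 CPM, against 3826 CPM and 3792 CPM in TAM_C1q. Among the classical monocyte genes, Plac8, Chil3 and Hp had 0 UMIs, each of which allows up to 7.70 CPM. Other genes of that list were present: Lyz2 stood at 5175 CPM against 7375 CPM in TAM_C1q, and Ms4a4c at 865 CPM against 70.2 CPM. By contrast, 31 of 32 antiviral effector genes compared were past 2-fold higher than in TAM_C1q (median log2 ratio 3.83), where 5.71% of all genes were and 10.4% were past 2-fold in either direction. Rsad2 stood at 1099 CPM against 3.89 CPM (log2 ratio 8.14, 7.78 to 8.52). Cxcl10, a chemokine for activated T cells, stood at 6007 CPM against 58.4 CPM (log2 ratio 6.68, 6.58 to 6.79). All 10 PYHIN genes, which encode DNA-binding proteins of the interferon response, and all 12 GBP and IRG GTPases compared, which attack intracellular membranes, were past 2-fold higher too. Of all genes compared, 258 were past 2-fold lower. Among those with a mean of at least 100 CPM the lowest ratios were those of the chemokine Ccl6, at 67 CPM against 228 CPM (log2 ratio -1.77), and Cbr2 at 123 CPM against 345 CPM (log2 ratio -1.48).

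Set over each other, the RTT C1qa-high and C1qa-low cells were further apart than the corresponding NTT cells in both identity lists. The cells were split by C1qa, which is on the macrophage list, so higher C1qa and genes that go with it follow from the choice and are given as a description. Of all genes compared, 30.2% were past 2-fold in either direction. The mature macrophage genes were past 2-fold higher in 20 of 21 cases (median log2 ratio 3.59, against 0.43 between the NTT sets), and the classical monocyte genes past 2-fold lower in 11 of 12 (median -5.78, with 4 genes at their bound, against -2.74). Both sets carried antiviral genes, and 19 of 34 were past 2-fold higher in the C1qa-high cells. Ifit2, which binds viral RNA, stood at 1176 CPM against 155 CPM, whereas Ifi27l2a went the other way, at 1644 CPM against 4441 CPM.

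Over all 94 cells, all 32 antiviral effector genes compared were past 2-fold higher than in TAM_C1q, beside 6.93% of all genes. The mature macrophage genes, of which 6 of 21 were past 2-fold lower beside 4.76% of all genes, and the classical monocyte genes, of which 9 of 12 were past 2-fold higher, lay between the values of the C1qa-high and C1qa-low cells that these sums contain.

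High antiviral expression was rare in the large RTT macrophage populations and more frequent in 2 small ones. The summed CPM of the antiviral effectors reached 20000 in 26 of 43 RTT C1qa-high Infl_Mono cells and in 22 of 2001 TAM_C1q cells (1.10%). It was reached in 13 of 719 TAM_Spp1 cells, in 5 of 947 TAM_cycling cells and in 5 of 280 Ctsk_Macro cells. It was also reached in 10 of 36 TAM_H2Ab1 cells, in 9 of 26 Macro cells and in 28 of 99 RTT Monocyte_1 cells, so the programme was not limited to cells with the Infl_Mono label. In NTT the level was reached in 475 of 620 Infl_Mono and 625 of 984 Monocyte_1 cells. Since the interferon-stimulated genes helped to form the cluster, these counts describe where the label was placed.

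The RTT C1qa-low cells had higher levels of classical monocyte genes than RTT Monocyte_1 taken as a whole. They were chosen for low C1qa and set against all 99 Monocyte_1 cells, 41 of them C1qa-high. Of those 41 cells, 31 had no Plac8 UMI. Lower C1qa and genes that go with it follow from the choice. Higher monocyte genes may follow from it too, and all are given as a description. C1qa-low Monocyte_1 cells were not compared on their own. Over Monocyte_1, 10 of 12 classical monocyte genes were past 2-fold higher (median log2 ratio 2.14, against 0.08 for all genes compared; 15% of all genes were past 2-fold higher). Hp, which encodes haptoglobin, stood at 1208 CPM against 101 CPM (log2 ratio 3.58). The mature macrophage genes were past 2-fold lower in 10 of 18 cases and past 2-fold higher in none, beside 9.46% of all genes past 2-fold lower. C1qa stood at 195 CPM against 3765 CPM, below the 814 CPM of the RTT NK cells. The antiviral genes were past 2-fold higher in 14 of 32 cases and had a log2 ratio above 0 in 29 (median log2 ratio 0.91). Ifit1 stood at 637 CPM against 66.6 CPM (log2 ratio 3.26, 2.71 to 3.84), whereas Rsad2, at 165 CPM against 107 CPM, had an interval that included 0 (log2 ratio 0.63, -0.03 to 1.28). These 51 cells held 199495 UMIs, so single genes at low levels were read from few counts.

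Over all 94 RTT cells, the comparison with Monocyte_1 mixed both sets. Of the antiviral effectors, 24 of 33 were past 2-fold higher (8.63% of all genes). Among genes with a mean of at least 100 CPM the highest ratios were those of the chemokine Ccl4, at 1330 CPM against 51.4 CPM (log2 ratio 4.69), and Ch25h (4.55), followed by Ifit1 (4.40), Fcrls, at 2112 CPM against 108 CPM (4.28), and Ccl12, a monocyte-attracting chemokine, at 6381 CPM against 333 CPM (4.26). When only cells with a Plac8 UMI were summed in both populations, Fcrls (log2 ratio -0.61), Ccl12 (-1.88) and Rsad2 (-0.45) turned to the other side, and 6 of 29 antiviral genes were past 2-fold higher, beside 14.8% of all genes in that setting. The lowest ratios by the same limit included Cxcl9 (-3.86) and MHC class II genes. H2-Ab1 stood at 1686 CPM against 11264 CPM (log2 ratio -2.74, -2.84 to -2.64), and 8 of 10 class II genes were past 2-fold lower, beside 3.37% of all genes.

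In the NTT tumour Infl_Mono cells were more monocytic and richer in interferon-stimulated genes than Monocyte_1. Of 34 antiviral effector genes, 23 were past 2-fold higher and none lower (median log2 ratio 1.40, against -0.04 for all genes compared; 5.42% of all genes were past 2-fold higher and 7.74% in either direction). Rsad2 stood at 1071 CPM against 38.4 CPM (log2 ratio 4.80, 4.60 to 5.01), and Cmpk2, its neighbour in the genome and a mitochondrial nucleotide kinase, at 235 CPM against 9.97 CPM (log2 ratio 4.56, 4.16 to 4.98). Ifit1 was higher by a log2 ratio of 3.32 and Ifit3 by 3.12. Of the classical monocyte genes 10 of 12 were past 2-fold higher, Chil3 (log2 ratio 3.11) among them. All 10 PYHIN genes and 4 of 6 Schlafen genes were past 2-fold higher, whereas of 15 GBP and IRG GTPases it was 4. Not every interferon-stimulated gene set the populations apart: Ifitm3, which blocks viral entry, stood at 11599 CPM against 11388 CPM, and Ifi27l2a at 6261 CPM against 5197 CPM. The genes that were lower, beside 2.33% of all genes past 2-fold lower, included C1qa at 1367 CPM against 4257 CPM (log2 ratio -1.64), H2-Ab1 at 4742 CPM against 11334 CPM (log2 ratio -1.26) and the immunoglobulin gene Ighm at 71 CPM against 393 CPM (log2 ratio -2.48).

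**Figure D3:**
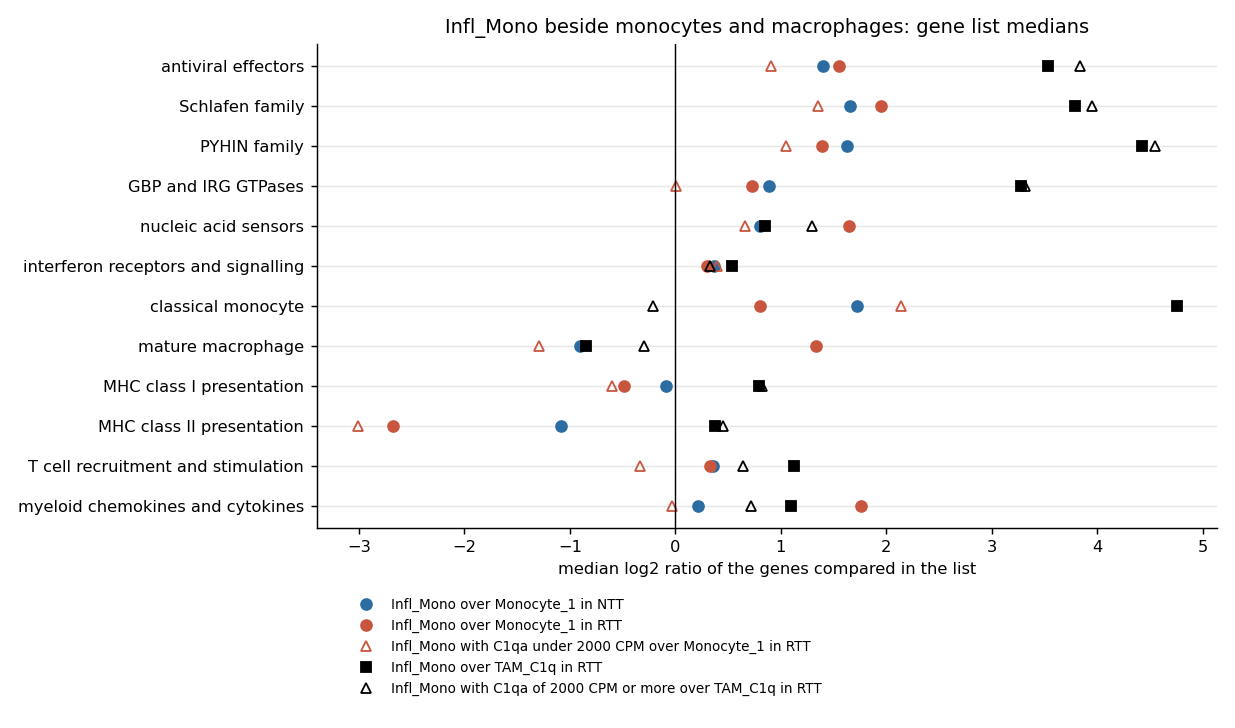
Median log2 ratio of the genes compared in each list (horizontal axis), for Infl_Mono over Monocyte_1 in NTT (blue circles) and RTT (red circles), for the RTT C1qa-low cells over Monocyte_1 (red triangles), and for RTT Infl_Mono (black squares) and its C1qa-high cells (black triangles) over TAM_C1q. The mature macrophage median was 1.33 for all RTT cells over Monocyte_1 and -1.29 for the C1qa-low cells, and the classical monocyte median over TAM_C1q was 4.75 for all RTT cells and -0.21 for the C1qa-high cells.

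The NTT label also covered a gradient, in which the C1qa-high cells had higher levels of most antiviral genes. These cells too were split by C1qa, so genes that go with it follow from the choice and are given as a description. Among C1qa-high over C1qa-low NTT cells, 7 of 34 antiviral effector genes were past 2-fold higher and none lower (median log2 ratio 0.62, against -0.12 for all genes; 4.25% of all genes were past 2-fold higher). Isg15, a ubiquitin-like modifier, stood at 7293 CPM against 4663 CPM, and Ifit3 at 1564 CPM against 712 CPM. Ly6a, which encodes the interferon-induced surface protein Sca-1, stood at 8540 CPM against 2810 CPM. The MHC class II genes were past 2-fold higher in 7 of 10 cases, with H2-Ab1 at 12083 CPM against 2654 CPM (log2 ratio 2.19), close to Monocyte_1 at 11334 CPM. The classical monocyte genes were past 2-fold lower in 10 of 12 cases (9.63% of all genes), with Chil3 at 126 CPM against 1498 CPM and Lyz2, which encodes lysozyme, at 1662 CPM against 18453 CPM. Plac8 fell by 0.70 on the log2 scale and so stayed within 2-fold. Fcrls stood at 1.44 CPM in these cells, far from the 3120 CPM of the RTT C1qa-high cells.

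The likeness of each cell to the populations of its own library ran along the same lines. Each cell's profile over the 2000 genes that varied most among populations was correlated with every population of at least 15 cells, with the cell itself left out. In NTT, 344 of 620 cells (55.5%) were most alike Infl_Mono, 152 TAM_Spp1 and 108 Monocyte_1. Of the 123 C1qa-high NTT cells, 70 were most alike Monocyte_1 and 48 Infl_Mono, and none TAM_C1q, which held only 17 cells in NTT. In RTT only 28 of 94 cells (29.8%, 20.8 to 40.1) were most alike Infl_Mono. The 51 C1qa-low RTT cells were most alike Monocyte_1 in 31 cases, Macro in 12 and Infl_Mono in 7. The RTT Infl_Mono profile is a sum in which C1qa-high cells held 389407 of 588902 UMIs, so it leans towards those cells. Of the 43 C1qa-high RTT cells, 21 were most alike Infl_Mono, 10 TAM_C1q and 11 TAM_H2Ab1. Without the genes of the interferon lists, 14 of the 94 RTT cells (14.9%) were most alike Infl_Mono and 22 TAM_C1q. In NTT the share over all cells was then 52.4%, while among the 123 C1qa-high cells 12 were most alike Infl_Mono and 108 Monocyte_1.

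Over all Infl_Mono cells the tumours were compared with both sets summed, so these ratios contain 43 of 94 C1qa-high cells in RTT and 123 of 620 in NTT. Of 5356 genes compared, 510 (9.52%) were past 2-fold higher and 438 (8.18%) past 2-fold lower in RTT. Of the mature macrophage genes 19 of 21 were past 2-fold higher (median log2 ratio 2.11, against 0.03 for all genes). Among genes with a mean of at least 100 CPM the highest ratios included those of the macrophage genes Fcrls, at 2112 CPM against 0.954 CPM, from 3 NTT UMIs (log2 ratio 11.11, 9.56 to 13.39), and Cd81, at 956 CPM against 17.8 CPM (5.75). Spp1, which encodes osteopontin, was also among the 10 highest, at 2578 CPM against 93.2 CPM (4.79), as was the chemokine Ccl7 at 2141 CPM against 83.7 CPM (4.68). Of the antiviral effectors 6 of 34 were past 2-fold lower and none higher (median log2 ratio -0.46). Ifit1 (log2 ratio 0.35, 0.24 to 0.46) and Ifit3 (0.61, 0.50 to 0.72) stood higher in RTT, and Isg15, at 2792 CPM against 5246 CPM, lower (-0.91, -0.98 to -0.84). By the same limit the lowest ratios were those of Il1r2, the decoy receptor for interleukin-1, at 59 CPM against 744 CPM (-3.65), Ly6i (-3.33) and the class I gene H2-Q7 (-3.06), followed by Slfn4 (-2.77) and Cxcl9 (-2.64).

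Within either set of cells the RTT tumour had lower levels of most antiviral genes than the NTT tumour, which the sums over all cells showed only in part. Among C1qa-low cells all 34 antiviral effector genes had a log2 ratio below 0, and 22 of them were past 2-fold lower (median -1.17, against 0.06 for all genes; 9.4% of all genes were past 2-fold lower and 17.1% in either direction). Rsad2 stood at 165 CPM in RTT and 992 CPM in NTT (log2 ratio -2.58, -3.13 to -2.09), against -0.45 over all cells. Ifit2 stood at 155 CPM against 924 CPM (-2.57), and Isg15 at 1459 CPM against 4663 CPM (-1.68). Ifit1 and Ifit3, higher in RTT over all cells, were lower here, at 637 CPM against 982 CPM (-0.63, -0.89 to -0.37) and 446 CPM against 712 CPM (-0.67, -1.0 to -0.37). Among C1qa-high cells 31 of the 34 genes had a ratio below 0, and 11 were past 2-fold lower (median -0.62, against 0.15 for all genes; 10.3% of all genes). These C1qa-high sets were not alike in make-up. A Plac8 UMI was found in 0 of 43 RTT and 120 of 123 NTT cells, and Fcrls stood at 3120 CPM against 1.44 CPM. Of all genes compared between them, 26.1% were past 2-fold in either direction. The part of this make-up in the antiviral ratios was not tested. Here Ifit1 stood at 1798 CPM in RTT against 1514 CPM in NTT and Rsad2 at 1099 CPM against 1350 CPM. For 20 of the 34 genes the ratio over all cells was above the ratios of both sets. Among cells with a Plac8 UMI, 29 of 34 antiviral genes were past 2-fold lower in RTT, beside 10.7% of all genes in that setting. The 2 sides differed in make-up there, as 120 of the 612 NTT cells and 0 of the 47 RTT cells were C1qa-high. Ifitm3, in contrast, stood within counting error among C1qa-low cells, at 10657 CPM against 11120 CPM (log2 ratio -0.06, -0.13 to 0.00).

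**Figure D4:**
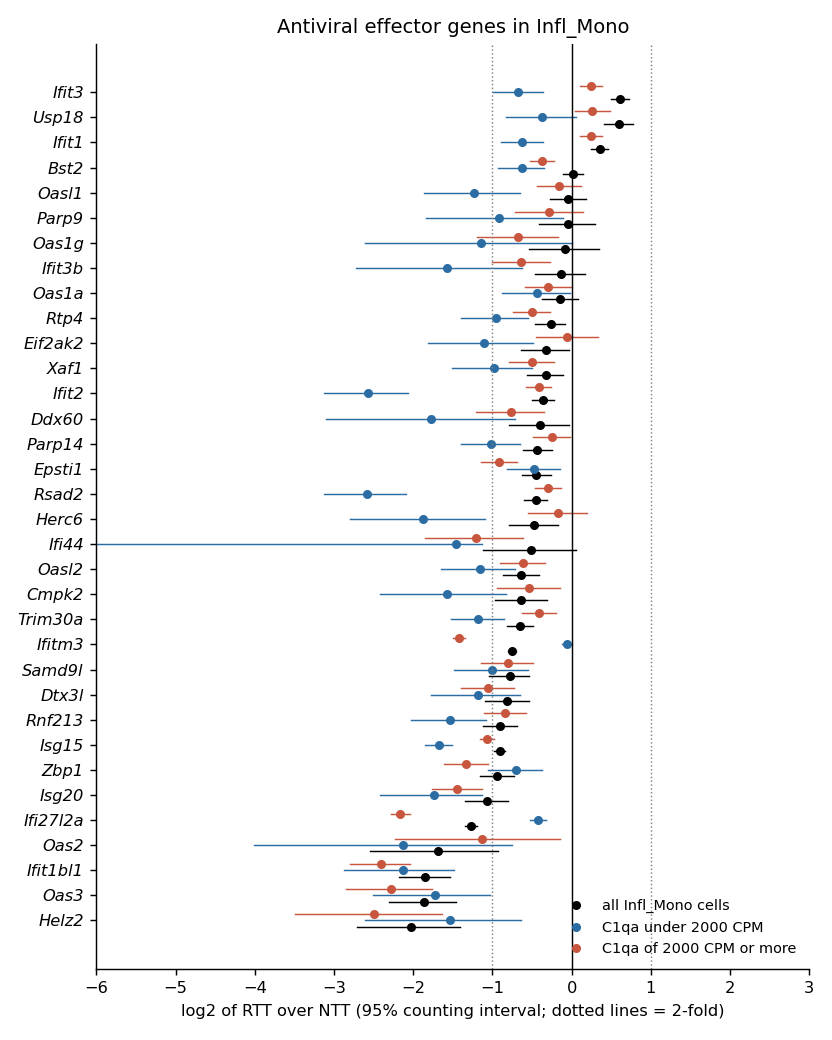
Log2 ratio of RTT over NTT for each of the 34 antiviral effector genes measured, over all Infl_Mono cells (black), C1qa-low cells (blue) and C1qa-high cells (red), with 95% counting intervals; dotted lines mark 2-fold. All 34 C1qa-low values lie below 0, whereas Ifit1, Ifit3 and Usp18 lie above 0 over all cells and in C1qa-high cells.

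Several other interferon-stimulated groups were lower in the RTT C1qa-low cells as well, read against 9.4% of all genes past 2-fold lower. The GBP and IRG GTPases were past 2-fold lower in 10 of 14 cases (median log2 ratio -1.52), with Gbp2 at 226 CPM against 1271 CPM. The PYHIN genes were past 2-fold lower in 5 of 10 cases, with Ifi205 at 100 CPM against 592 CPM, and the Schlafen genes in 3 of 6. Of the receptors and factors of interferon signalling, 3 of 19 were past 2-fold lower, not far from that share, and Irf7, which amplifies the type I response, stood at 607 CPM against 1389 CPM. Ly6a stood at 491 CPM against 2810 CPM (log2 ratio -2.52, -2.82 to -2.23). Of the classical monocyte genes 1 of 12 was past 2-fold lower and none higher. Plac8 stood at 6221 CPM against 8736 CPM (-0.49), and Chil3 was higher, at 1865 CPM against 1498 CPM (0.32, 0.16 to 0.47). The mature macrophage genes went both ways, with 6 of 18 past 2-fold higher and 3 lower. Fcrls stood at 145 CPM against 0.817 CPM, from 29 and 2 UMIs (7.47, 5.49 to 10.59), beside 239 CPM in RTT NK cells. The heat shock gene Hspa1b, which can respond to tissue handling, stood at 40 CPM against 349 CPM (-3.12), and its part in the other values was not tested. Among the genes higher in RTT, 7.69% of all compared, Spp1 had the highest ratio at a mean of at least 100 CPM, with 391 CPM against 73.1 CPM (2.42), with free Spp1 at 260 CPM in RTT and 72.4 CPM in NTT NK cells.

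**Figure D5:**
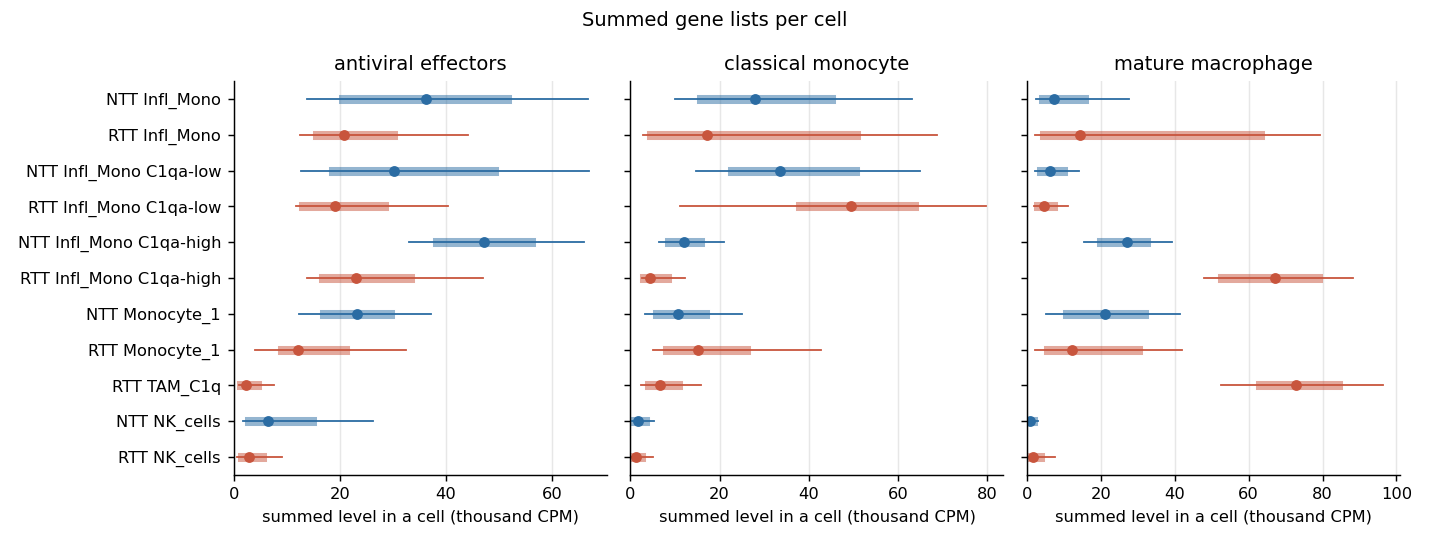
Summed CPM per cell of the antiviral effectors, the classical monocyte genes and the mature macrophage genes, NTT in blue and RTT in red; points are medians over cells, thick bars the interquartile range and thin bars the span without the lowest and highest 10%. The RTT C1qa-high cells had antiviral sums far above TAM_C1q (median 22942 CPM against 2352 CPM) and macrophage sums near it, whereas the NTT C1qa-high cells had the highest antiviral sums (median 47158 CPM).

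Genes that act on T cells differed in level between the sets. Cxcl9 and Cxcl10 encode chemokines for the same receptor on activated T cells. Cxcl10 stood at 1634 CPM in NTT and 1820 CPM in RTT C1qa-low cells, and at 2904 CPM and 6007 CPM in C1qa-high cells. Cxcl9 stood at 403 CPM and 216 CPM in C1qa-low cells, and at 830 CPM and only 10.3 CPM in C1qa-high cells, whereas RTT Monocyte_1 held 1163 CPM. The 2 chemokine genes thus went apart in the RTT C1qa-high cells. Il15, a survival factor for T cells, was low throughout, at 86.8 CPM in NTT and 57.7 CPM in RTT Infl_Mono cells, and exceeded Monocyte_1 at 12.4 CPM and 9.51 CPM. Cd274, which encodes the checkpoint ligand PD-L1, stood at 174 CPM and 32.3 CPM.

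Antigen presentation genes were lower in RTT than in NTT C1qa-high cells, sets that differed in Plac8 (0 of 43 cells against 120 of 123). Of the MHC class II genes 7 of 10 and of the MHC class I genes 10 of 18 were past 2-fold lower, beside 10.3% of all genes. H2-Ab1 stood at 2039 CPM against 12083 CPM, and Ciita, the master regulator of class II genes, at 2.57 CPM against 180 CPM. H2-K1, a classical class I gene, stood at 1289 CPM against 4320 CPM. In C1qa-low cells the class II genes were past 2-fold lower in 5 of 10 cases and the class I genes in 5 of 18, beside 9.4% of all genes. Of the cross-presentation genes, 3 of 5 reached the level for comparison and none was past 2-fold between tumours.

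Several myeloid chemokines were higher in the RTT C1qa-high cells. Of 11 myeloid chemokines and cytokines compared with NTT C1qa-high cells, 7 were past 2-fold higher and 3 lower, beside 15.8% of all genes past 2-fold higher. These are again the sets that differed in Plac8 (0 of 43 cells against 120 of 123). Ccl12 stood at 9404 CPM against 1699 CPM and Ccl2 at 2088 CPM against 411 CPM, and both also exceeded TAM_C1q, at 2990 CPM and 1390 CPM. Cxcl2, a neutrophil attractant, went the other way, at 2.57 CPM against 63.2 CPM.

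Markers of other cell types were low in all Infl_Mono cells. The 11 T and NK cell markers summed to 21.9 CPM in NTT and 6.79 CPM in RTT, and the 5 B and plasma cell markers to 18.5 CPM and 5.09 CPM. The 9 conventional dendritic cell markers summed to 76.0 CPM and 20.4 CPM, and the 8 neutrophil markers to 401 CPM and 117 CPM. Of the plasmacytoid dendritic cell markers, which summed to 217 CPM and 231 CPM, the defining gene Siglech had 1 UMI in NTT and 0 in RTT. The 8 melanoma and stroma markers measured summed to 110 CPM and 52.6 CPM. Doublet scores among the highest 5% of their library were found in 18 of 620 NTT and 2 of 94 RTT Infl_Mono cells.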

How the data were processed

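CD45+ cells of 1 NTT and 1 RTT tumour were profiled by droplet 3′ sequencing. The authors ran Cell Ranger 6.1.1 on the mm10 reference, kept cells above 1000 genes within limits on mitochondrial and ribosomal reads, kept genes found in several experiments, removed ribosomal and mitochondrial genes, and deposited raw UMI counts for 12584 genes in 7815 cells with a table of libraries and population names. Count sums equalled that table in all 7815 cells, and 0 columns were left unused.

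Here UMI counts were summed per population and scaled to CPM (Python 3.11.15, numpy 2.4.6, scipy 1.17.1, pandas 2.3.3). Ratios carry exact binomial, levels exact Poisson and shares exact Clopper-Pearson 95% intervals; a count of 0 was set to 3 UMIs and gives a bound. Named genes were the 10 largest ratios in each direction at a mean of at least 100 CPM, and the members of the lists. The ratio step was tested on simulated data. Scrublet in scanpy 1.11.5 called 0 doublets in over 5000 cells and so had not worked; cells were kept and its scores served for an alternative. TMM factors came from edgeR 4.0.16 (R 4.3.3). Alternatives varied the expression minimum, scaling, depth, gene minimum and doublet score. The members and lists were chosen with earlier results of these data known, and the comparisons of C1qa-high or C1qa-low cells with TAM_C1q, with Monocyte_1 and with each other, of C1qa-high cells between tumours, and the restriction to cells with a Plac8 UMI were added after the data had been seen. Positions are from GENCODE M21 on GRCm38; the release behind the authors' reference may differ. Slfn4, Ifit1bl1, Ifit3 and Ifit3b, Fcrls, Ly6a and Ly6i, Gbp genes and H2-Q7 have similar copies, and their values are uncertain to that extent. Lists were chosen from general knowledge, and 2 of the 36 antiviral effectors were not analysed here. Some list members are not reported here by name.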

Additional observations from a re-analysis of the deposited data

Results flagged for a closer look

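A total of 5 of the 1451 genes with a mean of at least 100 CPM in both libraries were past 2-fold in opposite directions when Infl_Mono was set over Monocyte_1 in the NTT and in the RTT tumour. The 3 of these that belonged to the lists were macrophage genes. Spp1 had a log2 ratio of -1.53 in NTT and 1.05 in RTT. Cd63, a lysosomal membrane protein, had -1.38 in NTT and 2.18 in RTT. Ms4a7 had -1.38 in NTT and 2.19 in RTT. Among cells with a Plac8 UMI the RTT ratios were -0.44 for Spp1, -2.95 for Cd63 and -2.43 for Ms4a7. When C1qa-high cells were set over C1qa-low cells of the same library, 1 of 1442 genes was past 2-fold in opposite directions: Cxcl9, with a log2 ratio of 1.04 in NTT and -4.39 in RTT. Each direction rests on 1 library, and the difference between the libraries was not tested.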

How the results depend on the processing

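No paired analysis was possible because each group was 1 library, and no replicate could be left out. All intervals cover counting error only, and 94 RTT cells limit what could be read from low genes. Of 106 alternatives to the 18 counts and shares, 85 stayed within the stated limits. Genes past 2-fold followed the expression minimum: at 5 and at 100 CPM in place of 20 they numbered 1887 and 242 (main 948) for RTT over NTT, 1866 and 190 (main 900) among C1qa-low cells, 847 and 180 (main 413) over Monocyte_1 in NTT, 1589 and 149 (main 633) over Monocyte_1 in RTT, and 1395 and 172 (main 648) over TAM_C1q. Thinning to 2000 UMIs gave 1109 over Monocyte_1 in RTT and 1206 over TAM_C1q. The share of C1qa-high cells in NTT, 19.8%, was 23.4% at a cut of 1000 CPM and 12.4% at 4000 CPM. Among cells with at least 1500 genes, 60.6% of RTT cells were C1qa-high (main 45.7%) and 63.4% had no Plac8 UMI (main 50%). The share of NTT cells most alike Infl_Mono was 49.0% with 500 genes (main 55.5%), and that of RTT cells 14.9% without the interferon lists (main 29.8%). Summing only cells with a Plac8 UMI, a setting chosen after seeing the data, gave 29 antiviral genes past 2-fold between tumours (main 6), 1247 genes and 6 antiviral genes (main 24) over Monocyte_1 in RTT. Over the list members past 2-fold, the same setting turned 26 ratios in each of these comparisons, while over all comparisons thinning turned 6 (Cxcl2 between tumours among them, from -1.17 to 0.07) and the minimum of 1500 genes 5 (Ccl4 in C1qa-low cells over Monocyte_1, from 1.10 to -2.66). Of the ratios followed gene by gene it turned 12: between tumours Cxcl10 (-1.23), Ccl12 (-2.97), Ccl7 (-2.32) and C1qa (-3.62), and over Monocyte_1 in RTT Ch25h (-0.61), Fcrls (-0.61), Ccl12 (-1.88), Ccl7 (-2.67), Rsad2 (-0.45), Spp1 (-0.44), Cd63 (-2.95) and Ms4a7 (-2.43). TMM scaling moved the median of all genes by -0.12 for RTT over NTT, -0.13 among C1qa-low cells and 0.14 over TAM_C1q on the log2 scale (C1qa-high cells: -0.21 between tumours and 0.16 over TAM_C1q), and turned no list member past 2-fold.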
